A study of Mus musculus with 12 samples.

Results

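The 44 genes described here are those that copy DNA in S phase and supply its nucleotides. They comprise 6 subunits of the MCM helicase, 4 origin licensing genes, 5 genes of helicase activation, 8 polymerase and primase subunits, 5 genes of the sliding clamp and its loader, 4 genes of single-strand binding and Okazaki fragment joining, 5 genes of nucleotide supply, 4 genes of the G1-S transition and 3 genes of chromatin copying. They were taken as a given list by Ensembl ID, and all 44 were found among the 39179 gene IDs of the count tables. All 44 also passed the filter on low counts, which left 12189 genes for testing. They lie on 14 chromosomes.

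All libraries came from CD4+ T cells of OT-II mice, whose transgenic T cell receptor responds to a peptide of ovalbumin. Naive cells of lymph nodes and spleen were activated with that peptide and an antibody to CD28 in the presence of antigen-presenting cells, polarised on day 0 and day 5 and harvested on day 8. The design crosses culture type with genotype and gives 4 groups of 3 libraries. Th17 KO and Th17 WT cells came from cultures titled pTh17+IL12, with IL-1b, IL-6, IL-23 and antibodies to IFNg and IL-4, and with IL-12 added after the second stimulation. Th1 KO and Th1 WT cells came from cultures with IL-2, IL-12 and an antibody to IL-4. KO cells were from OT-II x NKG2D-/- mice and were sorted as Thy1.1+, and WT cells were from C57BL/6 x OT-II mice and were sorted as Thy1.2+ NKG2D+. NKG2D is an activating receptor best known from natural killer and CD8 T cells, and Klrk1 encodes it. Per the labels' protocol, KO and WT cells were grown in co-culture and separated by the sort. Genotype, Thy1 allele and the NKG2D gate differ together, and a KO against WT difference cannot be told apart from a difference between NKG2D+ cells and all cells. The labels give neither the age of the mice nor which libraries share a mouse or a dish, so the p-values rest on library-to-library spread alone, which may be technical.

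In each division cycle origins are first licensed: the origin recognition complex, Cdc6 and Cdt1 load the ring-shaped MCM helicase onto DNA. At the start of S phase Cdc45 and the GINS complex join MCM and the helicase unwinds the fork, primase and polymerase alpha lay down primers, and polymerases epsilon and delta extend the strands on the PCNA clamp that replication factor C loads. Cyclin E and the E2F transcription factors drive entry into S phase, and many genes of replication and nucleotide synthesis are E2F targets, so their mRNAs are commonly read as a sign of proliferation. T cells divide fast after activation, and the mRNA level of these genes in a bulk library reflects both the share of cells in cycle and the mRNA per cell, which cannot be told apart here.

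Levels are given as CPM, the read count scaled to library size after TMM adjustment. Total counts ran from 9108203 to 12688637 in the 6 Th1 libraries and in Th17 WT 1, Th17 KO 1 and Th17 KO 3. The other 3 libraries were shallow, at 1722228 in Th17 KO 2, 2731909 in Th17 WT 2 and 1647232 in Th17 WT 3, and a single unnamed Ensembl ID held 51% of the counts in Th17 KO 2, 18.3% in Th17 WT 2 and 48.1% in Th17 WT 3. The least-counted member in any library still had 7 reads. Klrk1 was at 3.35, 2.10 and 1.60 CPM in Th17 KO cells and at 130, 141 and 133 CPM in Th17 WT cells, and at 5.58, 5.63 and 3.31 CPM in Th1 KO cells and at 161, 158 and 128 CPM in Th1 WT cells, as the genotype labels require. Of the Th17 programme, Il23r averaged 71.1 CPM in Th17 KO and 41.4 CPM in Th17 WT cells, against 0.554 CPM in Th1 KO and 0.321 CPM in Th1 WT cells. The 4 Th1 programme genes did not follow the culture labels as a group. Ifng averaged 55.0 CPM in Th17 KO and 195 CPM in Th17 WT cells, against 647 CPM in Th1 KO and 748 CPM in Th1 WT cells. Il12rb2 averaged 545 CPM in Th17 KO and 661 CPM in Th17 WT cells, against 387 CPM in Th1 KO and 442 CPM in Th1 WT cells. Tbx21 averaged 63.6 CPM in Th17 KO and 94.0 CPM in Th17 WT cells, against 55.3 CPM in Th1 KO and 74.0 CPM in Th1 WT cells. Cxcr3 averaged 19.2 CPM in Th17 KO and 16.8 CPM in Th17 WT cells, against 1.31 CPM in Th1 KO and 0.774 CPM in Th1 WT cells. The 6 CD4 T cell markers were present throughout.

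Per kilobase of annotated exon (all GENCODE exons of a gene joined), Pcna was the highest member in every group, at mean levels of 155 CPM per kilobase in Th17 KO, 178 in Th17 WT, 255 in Th1 KO and 268 in Th1 WT cells. The member that came next differed between the cultures. It was Mcm6 in Th17 cells, at 88.3 CPM per kilobase in KO and 86.7 in WT cells, and Rrm2 in Th1 cells, at 127 in KO and 138 in WT cells. Gins3, a subunit of GINS, was the lowest member by this measure in both Th17 groups, at 5.04 CPM per kilobase in Th17 KO and 3.82 in Th17 WT cells.

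**Figure D1:**
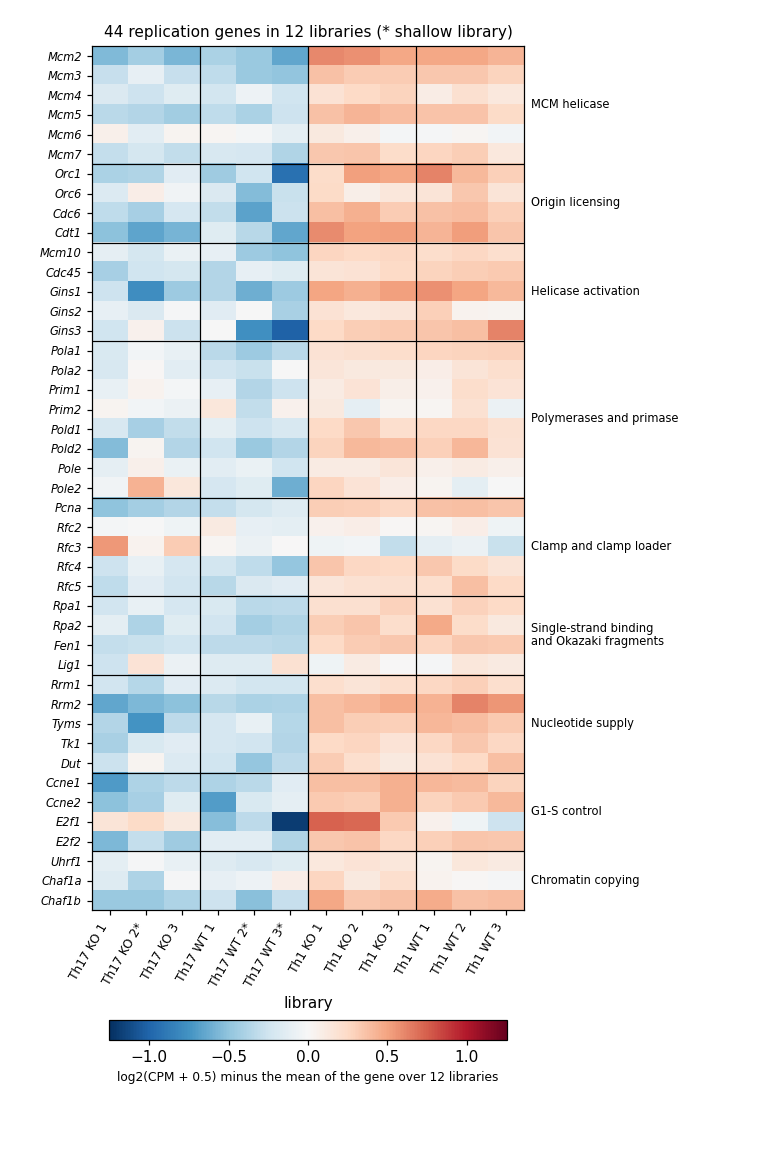
Colour gives, for each of the 44 genes down the page and each of the 12 libraries across it, log2(CPM + 0.5) minus the gene's mean over all libraries; asterisks mark the 3 shallow libraries. Most genes are lower in the Th17 KO and Th17 WT columns than in the Th1 columns, and Mcm6, Prim2, Rfc2 and Rfc3 are among those without that pattern.

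The comparison of the cultures asked whether replication genes differ between Th17 and Th1 cells of the same genotype. Most of them were lower in Th17 cells. Th17 KO against Th1 KO cells gave 36 lower and 1 higher of 44 members, where 26.7% of all tested genes were lower and 26.9% higher. Th17 WT against Th1 WT cells gave 37 lower and 0 higher of 44, where 23.6% of all tested genes were lower and 23.5% higher. The 37 lower members were also all those with an unadjusted p under 0.05, and DESeq2 and limma-voom called none higher either. The call is edgeR's quasi-likelihood test at an adjusted p under 0.05 over all 12189 genes.

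The typical difference was less than 2-fold. The median log2 fold change over the members was -0.48 in KO cells, a Th17 level 0.718 times that of Th1, against a median of 0.00 over all tested genes. In WT cells the median was -0.53, or 0.691 times, against -0.01 over all tested genes. Members ranged from -1.10 (Cdt1) to 0.52 (Rfc3) in KO cells and from -0.95 (Gins1) to 0.15 (Rfc3) in WT cells. The CPM of all 3 Th17 KO libraries lay below those of all 3 Th1 KO libraries for 38 of 44 members, as for 28.6% of tested genes, and above for 1 member, as for 27.1%. The same held for 38 below and 1 above in WT cells, with 27.5% and 24.6% of tested genes.

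Summed over the members, the libraries of a group were close to each other. The 44 genes together took 4406 to 4550 CPM in Th17 KO cells and 4401 to 4558 CPM in Th17 WT cells, against 6233 to 6343 CPM in Th1 KO cells and 6165 to 6439 CPM in Th1 WT cells. The means ± SD (n = 3) were 4489 ± 74.4 in Th17 KO, 4460 ± 85.3 in Th17 WT, 6306 ± 63.4 in Th1 KO and 6280 ± 142 CPM in Th1 WT cells. The sum was thus 28.8% lower in Th17 than in Th1 cells among KO and 29.0% lower among WT, while KO and WT sums differed by less than their spread in either culture.

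**Figure D2:**
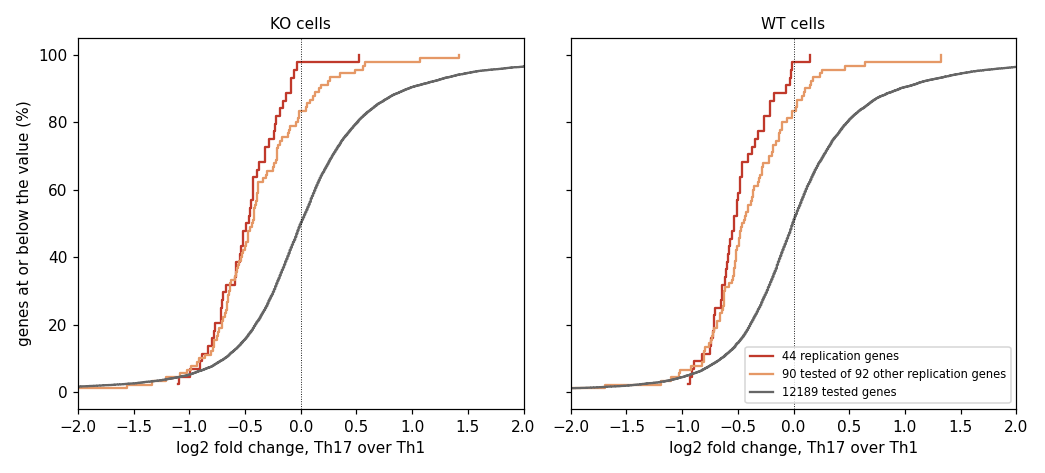
Cumulative share of genes (%) against the log2 fold change of Th17 over Th1, in KO cells on the left and WT cells on the right, for the 44 members, 90 other tested replication genes and all 12189 tested genes. The axis is drawn from -2 to 2, and the members' curve lies left of that of all genes over most of its course, with medians of -0.48 in KO and -0.53 in WT cells against 0.00 and -0.01.

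In all, 35 members were lower in both genotypes. Gins2 and Prim1 passed in WT cells alone and Chaf1a in KO cells alone, and none of the 3 differences between genotypes passed a test of its own. Lig1, Mcm6, Pole2, Prim2 and Rfc2 passed in neither genotype. Without the 3 shallow libraries the members' median log2 fold change was -0.50 in KO cells and -0.48 in WT cells, although Th17 WT then rests on a single library. When every library was thinned to the smallest total, 13 and 11 members passed as lower in KO and WT cells, where 12.9% and 10.8% of all genes then tested passed in either direction, while the members' medians were -0.43 and -0.48.

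Markers of other cells moved with culture type. The 9 markers of antigen-presenting and myeloid cells, most of it Cd74 and H2-Ab1, summed to 86.2 to 95.3 CPM in Th17 KO and 64.4 to 84.4 CPM in Th17 WT libraries, against 16.2 to 19.9 CPM in Th1 KO and 16.2 to 18.5 CPM in Th1 WT libraries. Csf1r, a macrophage marker among them, averaged 0.11 CPM at most in any group. Ebf1, a transcription factor of B cells, averaged 18.6 CPM in Th17 KO and 10.55 CPM in Th17 WT cells, against 0.05 CPM in Th1 KO and 0.10 CPM in Th1 WT cells. The share of mitochondrial genes was taken of the counts left without the unnamed Ensembl ID that held many counts in the shallow libraries. On that basis it was 19 to 20.8% in Th17 KO and 16.9 to 18.6% in Th17 WT libraries. It was 14.6 to 15.1% in Th1 KO and 14.2 to 14.8% in Th1 WT libraries. The part of these markers and of mitochondrial genes in the culture difference was not tested.

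**Figure D3:**
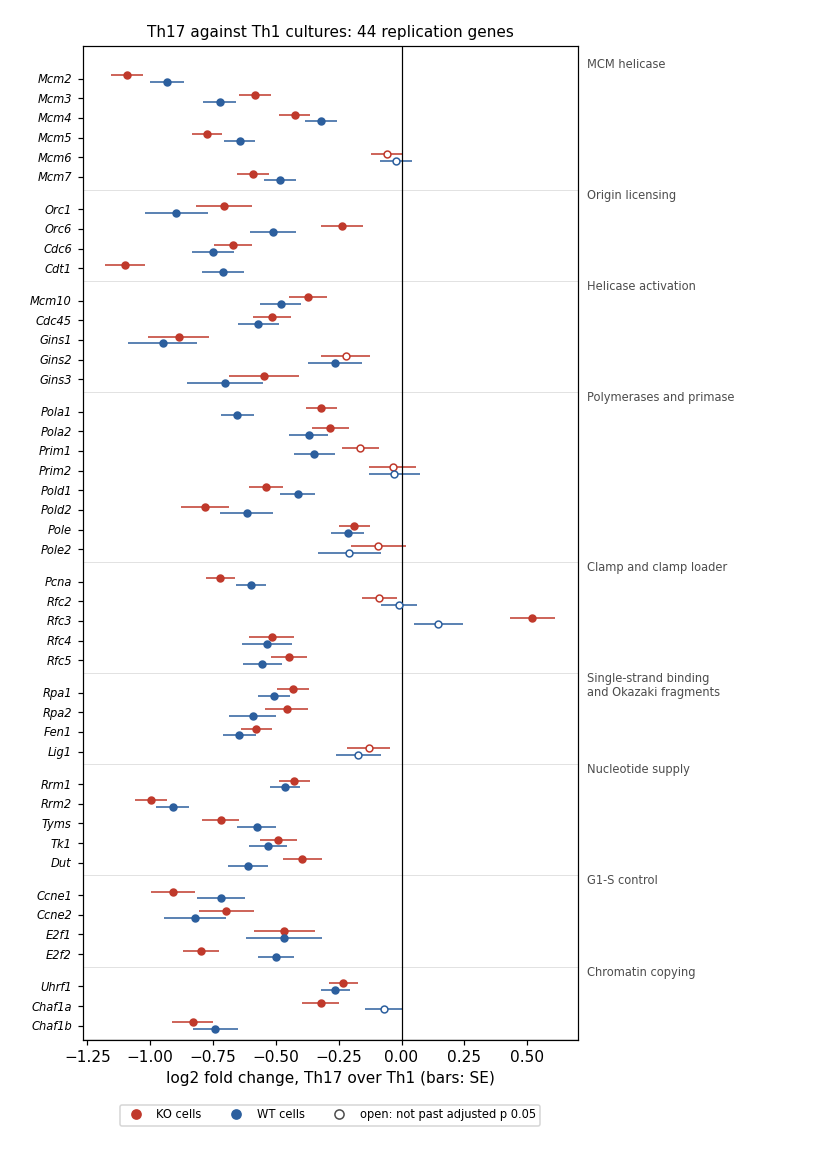
Log2 fold change of Th17 over Th1 (horizontal axis, bars ± SE) for each of the 44 genes grouped by role, in KO cells (red) and WT cells (blue); filled points passed an adjusted p under 0.05 and open points did not. Nearly all points lie left of 0, Mcm6 and Prim2 lie at 0, and Rfc3 lies to the right of it.

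The MCM helicase held members near both ends of the culture difference. Of its 6 subunits 5 were lower in Th17 cells of both genotypes, with medians of -0.59 in KO and -0.56 in WT cells. Mcm2 was at 118, 129 and 117 CPM in Th17 KO and at 132, 126 and 111 CPM in Th17 WT cells, against 264, 258 and 244 CPM in Th1 KO and 243, 244 and 234 CPM in Th1 WT cells. Every Th17 library lay far below every Th1 library. The log2 fold change was -1.09 ± 0.07 in KO (adjusted p 3.09e-13) and -0.93 ± 0.07 in WT cells (adjusted p 1.57e-11). Mcm5 (-0.77 in KO, -0.64 in WT), Mcm3 (-0.58 and -0.72), Mcm7 (-0.59 and -0.48) and Mcm4 (-0.42 and -0.32) followed.

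Mcm6, which sits in the same ring in equal number, did not pass. It was at 433, 379 and 424 CPM in Th17 KO and at 423, 409 and 382 CPM in Th17 WT cells, against 453, 435 and 409 CPM in Th1 KO and 411, 423 and 405 CPM in Th1 WT cells. The ranges overlapped in both genotypes, and the log2 fold change was -0.06 ± 0.06 in KO (adjusted p 0.462) and -0.02 ± 0.06 in WT cells (adjusted p 0.827). The ratio of Mcm6 to Mcm2 CPM therefore separated the cultures without overlap: it was 2.93 to 3.66 in Th17 KO and 3.20 to 3.44 in Th17 WT libraries, against 1.68 to 1.72 in Th1 KO and 1.69 to 1.73 in Th1 WT libraries. Both genes are read in the same library, so the ratio does not depend on how the libraries were scaled. It was described after the values of both genes had been seen.

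The promoters of 5 members are shown because these genes span the range of the culture difference, from Mcm2 and Cdt1 to Mcm6 and Rfc3. They are RefSeq windows of 250 bases before to 50 after the transcript start, on GRCm38.p6, written 5′ to 3′ on the strand of the gene. Capitals mark matches on either strand to the E2F letters TTTCCCGC, TTTCGCGC, TTTGCCGC or TTTGGCGC, and overlapping matches run together. Mcm2 (chr6:88898731-88899030, minus strand) held no match, Mcm5 (chr8:75109259-75109558, plus strand) 2 overlapping matches, Cdt1 (chr8:122567765-122568064, plus strand) 1, Mcm6 (chr1:128359656-128359955, minus strand) 3 and Rfc3 (chr5:151651159-151651458, minus strand) 2.
Mcm2: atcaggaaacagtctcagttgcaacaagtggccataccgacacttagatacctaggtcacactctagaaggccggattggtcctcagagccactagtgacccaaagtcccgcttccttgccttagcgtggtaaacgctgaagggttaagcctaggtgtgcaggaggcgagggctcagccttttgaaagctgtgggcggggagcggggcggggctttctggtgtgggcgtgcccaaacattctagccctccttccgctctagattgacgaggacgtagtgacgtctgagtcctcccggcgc
Mcm5: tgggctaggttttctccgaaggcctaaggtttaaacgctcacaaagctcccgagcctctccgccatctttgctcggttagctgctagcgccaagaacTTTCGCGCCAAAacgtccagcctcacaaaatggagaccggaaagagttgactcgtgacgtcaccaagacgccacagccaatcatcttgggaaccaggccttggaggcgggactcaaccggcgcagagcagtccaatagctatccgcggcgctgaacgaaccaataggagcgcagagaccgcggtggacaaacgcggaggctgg
Cdt1: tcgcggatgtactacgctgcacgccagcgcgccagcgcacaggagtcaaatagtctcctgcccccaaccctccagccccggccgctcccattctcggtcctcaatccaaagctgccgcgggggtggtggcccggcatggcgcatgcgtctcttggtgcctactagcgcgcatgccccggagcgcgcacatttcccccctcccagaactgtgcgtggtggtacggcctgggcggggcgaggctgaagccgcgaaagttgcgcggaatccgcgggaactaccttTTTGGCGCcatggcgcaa
Mcm6: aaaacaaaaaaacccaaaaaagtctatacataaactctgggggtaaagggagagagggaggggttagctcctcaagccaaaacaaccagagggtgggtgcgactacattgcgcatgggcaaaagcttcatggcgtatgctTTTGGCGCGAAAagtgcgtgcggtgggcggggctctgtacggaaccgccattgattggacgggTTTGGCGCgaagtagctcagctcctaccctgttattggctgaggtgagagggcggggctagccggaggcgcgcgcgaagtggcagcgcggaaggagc
Rfc3: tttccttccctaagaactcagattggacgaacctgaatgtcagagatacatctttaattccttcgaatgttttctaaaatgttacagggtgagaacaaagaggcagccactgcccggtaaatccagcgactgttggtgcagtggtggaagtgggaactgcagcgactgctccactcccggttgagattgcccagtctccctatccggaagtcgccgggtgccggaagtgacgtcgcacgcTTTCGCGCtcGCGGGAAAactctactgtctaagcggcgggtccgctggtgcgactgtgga

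Of the 44 members, 37 had a promoter in the RefSeq table, and 15 of these 37 (40.5%) held at least 1 of those E2F letters, against 2.60% of all 27025 genes in the table. Mcm4, Gins1, Gins2, Prim2, Pole, Rfc2 and Ccne2 were not matched. The CCAAT box, searched as CCAAT on both strands, was present in 22 of 37 (59.5%) members and 41.1% of all genes. Members with and without E2F letters were both mostly lower in Th17 cells. Among the 15 members with E2F letters, 11 were lower in Th17 KO than Th1 KO cells (median log2 fold change -0.55) and 11 in Th17 WT than Th1 WT cells (median -0.50). Among the 22 without, 21 were lower in KO (median -0.48) and 21 in WT cells (median -0.56). E2f1 and Dut are among these 22, and their windows lie inside the annotated genes. Single members went both ways. Mcm2, with the second-lowest value in each genotype, held none, and Mcm6 and Rfc3, which were not lower, held 3 and 2. Cdt1, the lowest in KO cells, and Orc1 held 1 each, and Mcm3 and Mcm5, also lower, held 2 each. Gins1, the lowest in WT cells, had no promoter to search. Whether the letters go with the culture difference was not tested. A match here describes the letters in this window and is not evidence that a factor binds there.

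All 4 origin licensing genes were lower in Th17 cells, with medians of -0.69 in KO and -0.73 in WT cells. Cdt1, which brings MCM to the origin together with Cdc6, had the lowest value of any member in KO cells. It was at 50.2, 45.2 and 47.9 CPM in Th17 KO and at 64.4, 56.2 and 45.7 CPM in Th17 WT cells, against 109, 102 and 102 CPM in Th1 KO and 96.8, 103 and 91.4 CPM in Th1 WT cells. Th17 and Th1 libraries did not overlap in either genotype, and the log2 fold change was -1.10 ± 0.08 in KO (adjusted p 1.43e-11) and -0.71 ± 0.08 in WT cells (adjusted p 1.07e-07).

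Orc1, the largest subunit of the origin recognition complex, was at 22.9, 23.1 and 27.3 CPM in Th17 KO and at 22.1, 25.3 and 15.6 CPM in Th17 WT cells, against 35.5, 43.4 and 42.6 CPM in Th1 KO and 46.6, 40.2 and 37.3 CPM in Th1 WT cells. Again no Th17 library reached a Th1 library, with log2 fold changes of -0.70 ± 0.11 in KO (adjusted p 9.02e-06) and -0.90 ± 0.13 in WT cells (adjusted p 2.54e-06). Cdc6 was lower by about the same in both genotypes (-0.67 in KO, -0.75 in WT). Orc6 had the smallest difference of the group, -0.24 ± 0.08 in KO (adjusted p 0.0176) and -0.51 ± 0.09 in WT cells, and its call in KO cells was lost without Th1 KO 1 or Th17 KO 1, among others.

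Of the 5 genes that turn the loaded MCM ring into a moving helicase, 4 were lower in Th17 KO and 5 in Th17 WT cells, with medians of -0.51 and -0.57. Gins1, a GINS subunit, had the lowest value of any member in WT cells. It was at 10.7, 7.35 and 9.32 CPM in Th17 KO and at 9.91, 8.31 and 9.34 CPM in Th17 WT cells, against 18.4, 17.8 and 18.7 CPM in Th1 KO and 19.4, 18.4 and 17.3 CPM in Th1 WT cells. Each Th17 library was below each Th1 library, and the log2 fold change was -0.89 ± 0.12 in KO (adjusted p 9.57e-07) and -0.95 ± 0.14 in WT cells (adjusted p 3.13e-06). Gins3 (-0.55 in KO, -0.70 in WT), Cdc45, the other partner of MCM (-0.51 and -0.57), and Mcm10, which helps to start unwinding (-0.37 and -0.48), were lower as well. Gins2 stood at the threshold, with -0.22 ± 0.10 in KO (adjusted p 0.055) and -0.27 ± 0.11 in WT cells (adjusted p 0.0469), and 67.3% of its exonic bases are shared with the annotated gene Gse1, whose reads cannot be told apart without strand. Its call in WT cells was lost in 13 of 21 alternative analyses.

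The polymerases and primase had some of the smallest differences. Of 8 genes 5 were lower in Th17 KO and 6 in Th17 WT cells, with medians of -0.24 and -0.36. Pold2 and Pold1, the accessory and catalytic subunits of polymerase delta, had -0.78 and -0.54 in KO cells and -0.62 and -0.41 in WT cells. Pola1, the catalytic subunit of polymerase alpha, had -0.32 ± 0.06 in KO and -0.65 ± 0.07 in WT cells. The edgeR test of the difference between these 2 values did not pass (adjusted p 0.0934). Pola2, the accessory subunit of polymerase alpha, had -0.28 in KO and -0.37 in WT cells. Pole, the catalytic subunit of polymerase epsilon, was slightly lower, at -0.19 ± 0.06 in KO (adjusted p 0.0132) and -0.21 ± 0.06 in WT cells (adjusted p 0.00789). Without Th17 KO 1 the Pole call in KO cells was lost, at an adjusted p of 0.0947. Its accessory subunit Pole2 did not pass (-0.09 ± 0.11 in KO, -0.21 ± 0.13 in WT).

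Primase works as a pair of subunits. Prim1, the catalytic subunit, had -0.16 ± 0.07 in KO (adjusted p 0.0675) and -0.35 ± 0.08 in WT cells (adjusted p 9.94e-04). Prim2, the regulatory subunit, had -0.04 ± 0.09 in KO (adjusted p 0.772) and -0.03 ± 0.10 in WT cells (adjusted p 0.854). The ratio of Prim2 to Prim1 CPM was 0.782 to 0.901 in Th17 KO and 0.862 to 1.022 in Th17 WT libraries, against 0.677 to 0.838 in Th1 KO and 0.694 to 0.808 in Th1 WT libraries, so that the cultures overlapped in KO cells and did not in WT cells. The difference between the subunits was not tested.

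Of the 5 genes of the clamp and its loader, 3 were lower in Th17 cells of each genotype and 1 was higher in KO cells. Pcna, the clamp, was at 353, 372 and 387 CPM in Th17 KO and at 406, 430 and 446 CPM in Th17 WT cells, against 619, 615 and 599 CPM in Th1 KO and 644, 651 and 637 CPM in Th1 WT cells. The groups were far apart, with log2 fold changes of -0.72 ± 0.06 in KO (adjusted p 1.28e-10) and -0.60 ± 0.06 in WT cells (adjusted p 6.17e-09). Of the loader subunits, Rfc4 (-0.52 in KO, -0.53 in WT) and Rfc5 (-0.45 and -0.55) were lower, and Rfc2 did not pass (-0.09 ± 0.07 and -0.01 ± 0.07). Rfc4 shares 12.7% of its exonic bases with Eif4a2, which held 36905 reads over all libraries against 3769 for Rfc4. Rfc5 shares 10.7% with Wsb2.

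Rfc3, a small subunit of the same loader, was the only member called higher in Th17 cells, and only in KO cells. It was at 99.7, 70.4 and 85.2 CPM in Th17 KO and at 69.2, 64.9 and 68.5 CPM in Th17 WT cells, against 65.6, 66.6 and 55.0 CPM in Th1 KO and 63.0, 64.6 and 56.3 CPM in Th1 WT cells. All 3 Th17 libraries lay above all 3 Th1 libraries in each genotype, narrowly so in WT cells. The log2 fold change was 0.52 ± 0.09 in KO (adjusted p 3.72e-05) and 0.15 ± 0.10 in WT cells (adjusted p 0.236). The test of the difference between these 2 values gave 0.37 ± 0.13, with an adjusted p of 0.279.

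**Figure D4:**
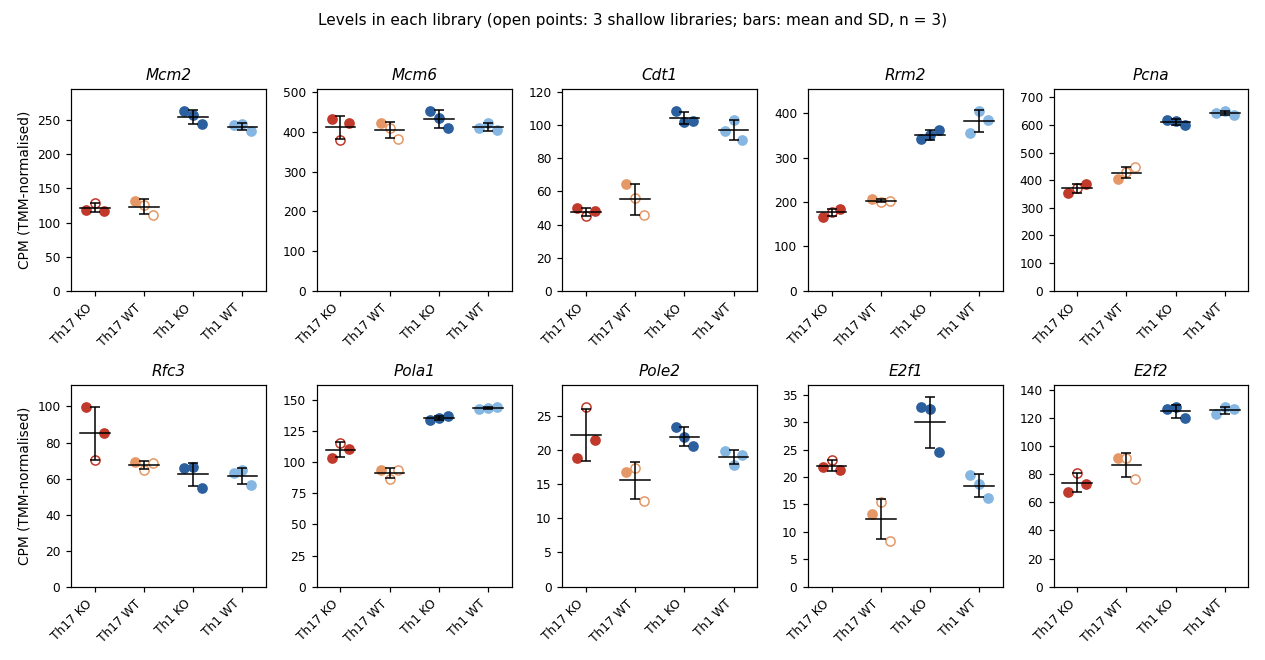
CPM in each library of 10 members (one panel each, groups Th17 KO, Th17 WT, Th1 KO and Th1 WT from left to right); horizontal bars and error bars give mean and SD (n = 3), and open points are the shallow libraries. Mcm2, Cdt1, Rrm2 and Pcna separate Th17 from Th1 libraries, Mcm6 does not, and E2f1 separates KO from WT libraries within each culture.

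Single-strand binding and Okazaki fragment genes gave 3 lower of 4 in each genotype, with medians of -0.44 in KO and -0.55 in WT cells. Rpa1 and Rpa2, subunits of the protein that coats single-stranded DNA, had -0.43 and -0.46 in KO and -0.51 and -0.59 in WT cells. Fen1, the flap endonuclease that trims Okazaki fragments, had -0.58 in KO and -0.65 in WT cells; it shares 78.8% of its exonic bases with Gm10143, which held 20 reads over all libraries against 13279 for Fen1. Lig1, the ligase that seals them, did not pass (-0.13 ± 0.09 and -0.17 ± 0.09); its libraries ran from 79.0 to 106 CPM in Th17 KO and from 84.2 to 108 CPM in Th17 WT cells, against 91.2 to 102 CPM in Th1 KO and 93.2 to 104 CPM in Th1 WT cells.

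All 5 genes of nucleotide supply were lower in Th17 cells of both genotypes, with medians of -0.49 in KO and -0.58 in WT cells. Rrm2 is the small, cell cycle-regulated subunit of ribonucleotide reductase, which makes deoxyribonucleotides. It was at 167, 179 and 184 CPM in Th17 KO and at 206, 200 and 201 CPM in Th17 WT cells, against 341, 351 and 363 CPM in Th1 KO and 356, 405 and 385 CPM in Th1 WT cells. The cultures were far apart, with a fitted Th17 to Th1 ratio of 0.501 in KO (SE 0.06 on the log2 scale, adjusted p 1.11e-12) and a log2 fold change of -0.91 ± 0.06 in WT cells (adjusted p 1.2e-11). The large subunit Rrm1 was lower by a smaller amount, -0.43 ± 0.06 in KO and -0.46 ± 0.06 in WT cells. Tyms, which makes thymidylate (-0.72 and -0.58), Tk1, which salvages thymidine (-0.49 and -0.53), and Dut, which removes dUTP (-0.40 in KO, -0.61 in WT), were lower too.

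All 4 genes of the G1-S transition were lower, with medians of -0.75 in KO and -0.61 in WT cells. Ccne1, which encodes a cyclin E, was at 29.3, 36.8 and 38.4 CPM in Th17 KO and at 36.8, 38.0 and 43.6 CPM in Th17 WT cells, against 62.9, 63.0 and 65.6 CPM in Th1 KO and 64.5, 63.6 and 58.8 CPM in Th1 WT cells. Every Th17 library lay below every Th1 library, with log2 fold changes of -0.91 ± 0.09 in KO (adjusted p 2.58e-09) and -0.72 ± 0.10 in WT cells (adjusted p 7.73e-07). Its paralogue Ccne2 had -0.70 in KO and -0.82 in WT cells. The transcription factors E2f2 (-0.80 in KO, -0.50 in WT) and E2f1 (-0.47 in both) were lower too. The E2f1 call in WT cells was lost without Th1 WT 1 or Th17 WT 1.

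In chromatin copying, 3 of 3 genes were lower in Th17 KO and 2 of 3 in Th17 WT cells, with medians of -0.32 and -0.26. Chaf1b, a subunit of the histone chaperone CAF-1, had -0.83 in KO and -0.74 in WT cells. Its partner Chaf1a had -0.32 ± 0.07 in KO (adjusted p 5.31e-04) and -0.07 ± 0.08 in WT cells (adjusted p 0.489), with 52.5% of its exonic bases shared with Ubxn6. Uhrf1, which recognises hemimethylated DNA behind the fork, had -0.23 in KO and -0.26 in WT cells.

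The comparison of genotypes asked whether loss of NKG2D goes with other levels of the replication genes. In Th1 cells it did for 1 gene, E2f1, which was higher in KO cells. Of 44 members 1 was higher and 0 were lower, where 1.69% of all tested genes were higher and 2.92% lower, and the median log2 fold change was 0.02. By edgeR 3 members had an unadjusted p under 0.05, and none of these was lower. The share of all tested genes under that unadjusted p was not counted. DESeq2 and limma-voom likewise called 1 higher and 0 lower, where 2.6% and 8.79% of all tested genes passed in either direction. CPM ranges did not overlap for 11 members, 6 above and 5 below, as for 11.1% and 13.4% of tested genes.

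E2f1, a transcription factor that activates genes of S phase entry, was at 32.8, 32.4 and 24.6 CPM in Th1 KO cells and at 20.3, 18.7 and 16.2 CPM in Th1 WT cells. All 3 KO libraries were higher than all 3 WT libraries. The log2 fold change was 0.70 ± 0.11, a ratio of 1.63, with an adjusted p of 1.96e-04. It lost the call in 1 of 21 alternative analyses, the thinned libraries, where it was 0.41 with an adjusted p of 0.905; the others gave up to 0.83. The RefSeq promoter window of E2f1 (chr2:154569377-154569676, minus strand) held none of the E2F letters given above. That window lies inside the annotated gene, whose 5′ end is at 154569892, so the bases before this end were not searched.

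The values of the other members in Th1 cells were small in both directions. All 6 MCM subunits were slightly positive, from 0.02 to 0.10, and all 5 genes of nucleotide supply slightly negative, from -0.12 to -0.05, and none of these passed. Chaf1a came closest after E2f1, at 0.19 ± 0.07 (adjusted p 0.125), and it passed when the Th1 libraries were fitted alone (adjusted p 0.0224). Without the shallow libraries its value was 0.19. Chaf1a did not pass by DESeq2 (adjusted p 0.37), by limma-voom (0.0561) or without Th1 KO 1 (0.374), among others. Pole2 had 0.21 ± 0.10 (adjusted p 0.292).

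In Th17 cells, 3 of 44 members were higher in KO than WT cells (E2f1, Rfc3 and Pola1) and 1 was lower (E2f2), where 1.81% of all tested genes were higher and 4.02% lower. The median log2 fold change was again 0.02. An unadjusted p under 0.05 was found for 10 members by edgeR, and the share of all tested genes under it was not counted. Ranges did not overlap for 9 members above and 2 below, as for 8.94% and 9.59% of tested genes. Shallow libraries make up 2 of 3 in Th17 WT and 1 of 3 in Th17 KO cells. Without all 3 of them the members' median was 0.01, with Th17 WT resting on a single library.

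E2f1 was at 21.9, 23.1 and 21.2 CPM in Th17 KO cells and at 13.3, 15.4 and 8.31 CPM in Th17 WT cells. The KO libraries were again all higher than the WT libraries, and the log2 fold change of 0.70 ± 0.16 (adjusted p 0.00756) equalled that in Th1 cells to 2 decimals. The call was lost in 4 of 21 alternative analyses, among them without Th17 WT 1 (adjusted p 0.109) and without the shallow libraries (adjusted p 0.0652), with a log2 fold change between 0.65 and 0.77 in all of them.

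E2f2, its paralogue, went the other way in Th17 cells. It was at 67.5, 80.9 and 73.2 CPM in Th17 KO and at 91.3, 91.4 and 76.8 CPM in Th17 WT cells, so that the highest KO library overlapped the lowest WT library. The log2 fold change was -0.31 ± 0.08 (adjusted p 0.0177), and the call was lost without Th17 KO 1 (adjusted p 0.165), Th17 WT 1 (0.126) or Th17 WT 2 (0.0716). In Th1 cells E2f2 was at 126, 128 and 120 CPM in KO and at 123, 127 and 126 CPM in WT cells, with a log2 fold change of -0.01 ± 0.06. The ratio of E2f1 to E2f2 CPM was 0.286 to 0.324 in Th17 KO and 0.108 to 0.169 in Th17 WT libraries. It was 0.206 to 0.260 in Th1 KO and 0.129 to 0.166 in Th1 WT libraries, with no overlap between genotypes in either culture. E2f1 CPM alone did not overlap between genotypes either, so the ratio is not a separate result.

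Rfc3, whose values are given above, had a log2 fold change of 0.40 ± 0.10 (adjusted p 0.0207), with no overlap between Th17 KO and Th17 WT libraries. The call was lost in 10 of 21 alternative analyses, including DESeq2 (adjusted p 0.0603), and without Th17 KO 1, its highest library, the adjusted p was 0.173. Without Th17 WT 1, WT 2 or WT 3 it was 0.0807, 0.0943 and 0.0522.

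Pola1 was at 104, 116 and 111 CPM in Th17 KO and at 93.5, 86.2 and 93.4 CPM in Th17 WT cells, and the ranges did not overlap. The log2 fold change was 0.25 ± 0.07 (adjusted p 0.0305), lost in 8 of 21 alternative analyses, including DESeq2 (0.11) and leaving out Th17 KO 3 (0.142), Th17 WT 1 (0.0547) or Th17 WT 2 (0.145). In Th1 cells the order was the reverse, with 134, 135 and 137 CPM in KO and 143, 143 and 144 CPM in WT cells and a log2 fold change of -0.08 ± 0.06 (adjusted p 0.529). Pcna (-0.20 ± 0.06, adjusted p 0.0533), Cdt1 (-0.28 ± 0.09, adjusted p 0.0697) and Rrm2 (-0.21 ± 0.07, adjusted p 0.0758) were just outside the threshold.

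**Figure D5:**
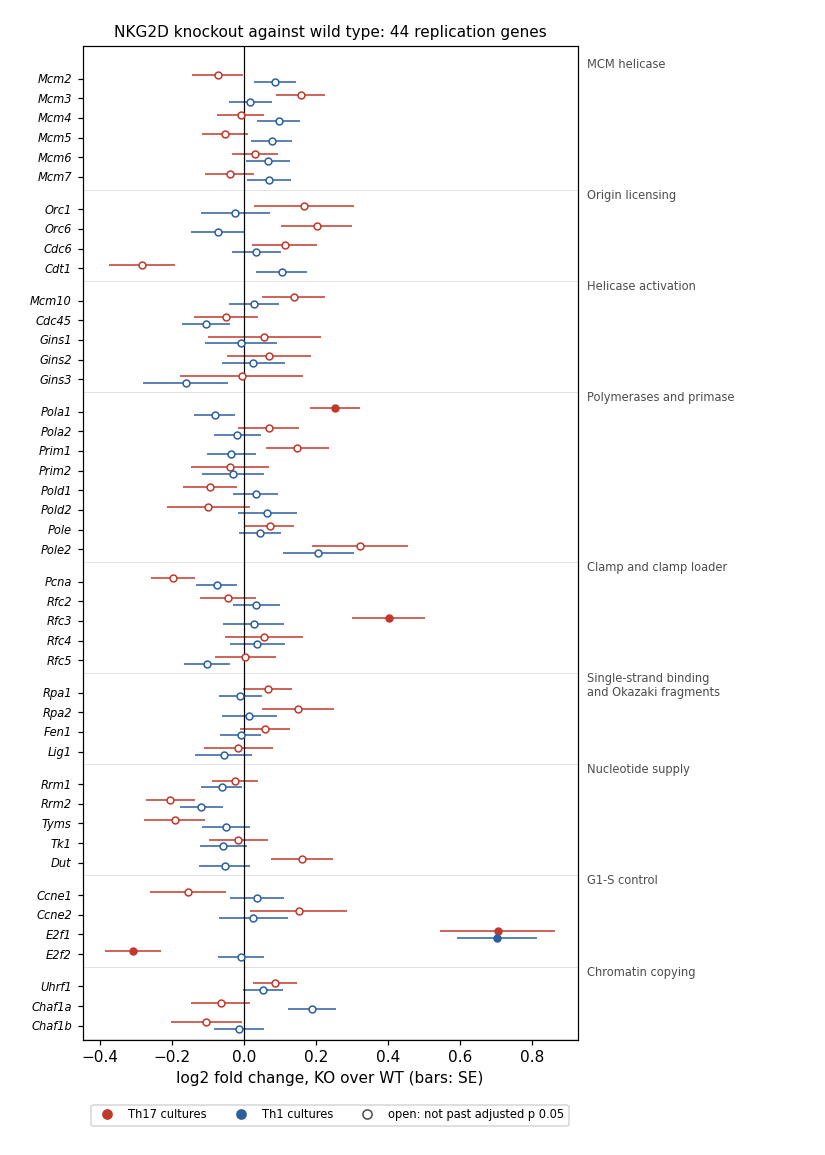
Log2 fold change of KO over WT (horizontal axis, bars ± SE) for each of the 44 genes grouped by role, in Th17 cells (red) and Th1 cells (blue); filled points passed an adjusted p under 0.05. Points cluster around 0, apart from E2f1 at 0.70 in both cultures.

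Averaged over both cultures, with 6 KO and 6 WT libraries, 3 members were higher in KO cells and 3 lower, where 3.19% of all tested genes were higher and 6.64% lower. E2f1 (0.70 ± 0.10, adjusted p 1.77e-05), Pole2 (0.26 ± 0.08, adjusted p 0.043) and Rfc3 (0.21 ± 0.07, adjusted p 0.0439) were higher. Rrm2 (-0.16 ± 0.04, adjusted p 0.0192), Pcna (-0.14 ± 0.04, adjusted p 0.0344) and E2f2 (-0.16 ± 0.05, adjusted p 0.0435) were lower. Of 20 alternative analyses, the call was lost in 1 for E2f1, in 5 for Rrm2, in 12 for Pcna and in 13 each for Pole2, Rfc3 and E2f2. Without Th1 KO 1 or without Th1 KO 2 a single member passed, where 8% and 7.53% of all genes tested passed. Pole2, the accessory subunit of polymerase epsilon, was at 18.8, 26.3 and 21.4 CPM in Th17 KO and at 16.7, 17.4 and 12.5 CPM in Th17 WT cells, and at 23.3, 21.9 and 20.5 CPM in Th1 KO and 19.8, 17.8 and 19.3 CPM in Th1 WT cells. In each culture all its KO libraries were above its WT libraries.

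The test of whether the genotype difference itself differed between Th17 and Th1 cells called 0 of 44 members by edgeR, 0 by DESeq2 and 0 by limma-voom, where 0.591% of all tested genes passed. By edgeR 6 members had an unadjusted p under 0.05, and the share of all tested genes under it was not counted. The smallest adjusted p was that of Pola1, 0.0934, for a difference of 0.33 ± 0.09 in log2 fold change. Cdt1 followed with -0.39 ± 0.12 (adjusted p 0.146), and it passed with a term for the 3 shallow libraries (-0.47, adjusted p 0.0316). Without those libraries its difference was -0.51, with Th17 WT resting on a single library. Without Th17 WT 1 its difference was -0.22 (adjusted p 0.565), and DESeq2 gave -0.39 (adjusted p 0.463).

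A second list of 92 genes that act in replication around these members was described beside them. Of these, 90 were tested, all but Ccnd1 and Cdkn1c. They were likewise mostly lower in Th17 cells, with 65 lower and 9 higher of 90 in KO cells (median -0.44), where 26.7% of all tested genes were lower and 26.9% higher, and 63 lower and 4 higher in WT cells (median -0.45), where 23.6% were lower and 23.5% higher. All 9 genes of fork protection and clamp handling and all 6 chromatin genes of that list were lower in both genotypes. The smallest p among those lower in KO cells belonged to Asf1b, a histone chaperone (-1.21 ± 0.07), Shmt2, a mitochondrial enzyme of one-carbon metabolism (-1.08 ± 0.07), and E2f7, an E2F repressor (-1.34 ± 0.10). In WT cells they were Asf1b (-1.10 ± 0.07), Slbp, which binds histone mRNA (-0.92 ± 0.07), and Clspn, a checkpoint adaptor (-0.82 ± 0.07). Asf1b averaged 51.0 CPM in Th17 KO, 54.8 in Th17 WT, 116 in Th1 KO and 118 in Th1 WT cells.

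The same 3 genes led those higher in Th17 cells of either genotype. Pold4, the small subunit of polymerase delta, averaged 43.2 CPM in Th17 KO and 40.9 in Th17 WT cells, against 16.6 in Th1 KO and 15.9 in Th1 WT cells, with log2 fold changes of 1.42 ± 0.10 in KO and 1.32 ± 0.11 in WT cells. Its direction was opposite to that of Pold1 and Pold2, which belong to the same enzyme. Samhd1, which breaks down deoxyribonucleotides, had 0.56 ± 0.06 in KO and 0.64 ± 0.06 in WT cells, opposite in direction to Rrm1 and Rrm2, which make them. Tfdp2, a dimer partner of E2F proteins, had 1.07 ± 0.12 in KO and 1.32 ± 0.13 in WT cells.

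Between genotypes, 4 of the 90 genes of that list were higher and 4 lower in Th1 KO than Th1 WT cells, where 1.69% of all tested genes were higher and 2.92% lower. In Th17 KO against Th17 WT cells 5 were higher and 5 lower, where 1.81% of all tested genes were higher and 4.02% lower. In Th1 cells Cdkn1a, an inhibitor of cyclin-dependent kinases (0.45 ± 0.09), and the purine synthesis genes Pfas (0.30 ± 0.06) and Gart (0.26 ± 0.06) had the smallest p among the higher genes. The kinase inhibitors Cdkn2d (-0.43 ± 0.07) and Cdkn2c (-0.39 ± 0.09) and Samhd1 (-0.26 ± 0.06) had it among the lower. In Th17 cells Mthfd1, an enzyme of folate metabolism (0.35 ± 0.09), Gart (0.32 ± 0.08) and Atic, also of purine synthesis (0.29 ± 0.07), led the higher genes, and Samhd1 (-0.34 ± 0.07), Cdkn2d (-0.43 ± 0.09) and Ccnd3, a cyclin D (-0.30 ± 0.07), the lower.

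Samhd1 averaged 326 CPM in Th17 KO and 414 CPM in Th17 WT cells, and 222 CPM in Th1 KO and 265 CPM in Th1 WT cells. Averaged over the cultures 8 genes of the list were higher in KO cells, 7 of them among its 24 genes of nucleotide supply, and 7 were lower, where 3.19% of all tested genes were higher and 6.64% lower. Gart (0.29 ± 0.05), Pfas (0.25 ± 0.05) and Mthfd1 (0.28 ± 0.06) had the smallest p among the higher, and Cdkn2d (-0.43 ± 0.06), Samhd1 (-0.30 ± 0.04) and Rbl1, a pocket protein that binds E2F (-0.25 ± 0.05), among the lower. Each of these 6 average calls was lost in 1 of 20 alternative analyses, the thinned libraries. Some calls within a culture held less well. In Th17 cells Mthfd1 and Gart lost theirs in 7 of 21, Atic in 9 and Ccnd3 in 3. In Th1 cells Gart lost its call in 4, Samhd1 in 5 and Cdkn2c in 7. Samhd1 and Cdkn2d in Th17 cells and Cdkn1a, Pfas and Cdkn2d in Th1 cells lost theirs in 1 of 21. The test of the difference between cultures called 0 of 90 by edgeR, where 0.591% of all tested genes passed. An unadjusted p under 0.05 was found for 8, and the share of all tested genes under it was not counted.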

How the data were processed

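Poly-A dependent cDNA libraries of sorted cells were sequenced in 12 samples, 3 in each of 4 groups set by the titles. The authors deposited raw read counts per Ensembl gene; per the submitters' processing notes TopHat2, Bowtie2, featureCounts and GRCm38 (mm10) were used, and versions, strand setting and annotation release are not given in the sources used here. Per the labels' protocols the cDNA kit was Smart-Seq v4, whose reads carry no strand, so reads of overlapping genes cannot be told apart. Besides the overlaps given above, Ccne2 shares 17.4% of its exonic bases with Ints8 and Orc6 6.93% with Vps35, among others.

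Here the deposited counts were scaled by TMM, filtered with filterByExpr and tested with the quasi-likelihood test of edgeR 4.0.16 in R 4.3.3, with 1 coefficient per group over all 12 libraries and Benjamini-Hochberg adjustment over 12189 genes at a threshold of 0.05. SE is the log2 fold change divided by the root of F. edgeR bounds the p of genes with very low spread by a Poisson test, so a few p-values exceed what fold change and SE imply (Rpa1, KO against WT in Th17 cells). The fit weights deep libraries more than shallow ones, so a fold change can differ from a ratio of mean CPM. The script was tested on simulated counts.

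Symbols came from GENCODE M21 for 37607 of 39179 IDs, and promoters from RefSeq. No replicate pair agreed within sampling noise. Total counts were 1647232 to 12688637, so 3 counts correspond to 3.15 to 0.208 CPM. Alternatives were other size factors, DESeq2 1.42.0, limma-voom (limma 3.58.1), no filter, thinning, the compared groups alone, handling of the 3 shallow libraries, removal of the ID that dominates them, and leaving out each library.

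Any member may be named. Values per library are given for up to 4 members per direction with the lowest or highest log2 fold change past the threshold in each comparison of 2 groups, and from the second list up to 3 per direction by p; the per-library values of Mcm6, Pcna and Pole2 were added after their values were seen. The members and lists were chosen with earlier results of these data known. Some marker results are not reported here.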

Additional observations from a re-analysis of the deposited data

Results flagged for a closer look

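Pola1 stood out because its KO and WT libraries lay in opposite order in the cultures: all 3 Th17 KO libraries were above all 3 Th17 WT libraries, and all 3 Th1 KO libraries were below all 3 Th1 WT libraries. The log2 fold change of KO over WT was 0.33 higher in Th17 than in Th1 cells, with an SE of 0.09. The test of this difference gave an adjusted p of 0.0934 by edgeR and did not pass.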

How the results depend on the processing

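Thinning all libraries to the smallest total left 13 members past the threshold for Th17 KO against Th1 KO and 11 for Th17 WT against Th1 WT. Of all genes then tested, 12.9% and 10.8% passed. It left 0 each for Th17 KO against WT, Th1 KO against WT and the average of both. There 0.293%, 0.0807% and 0.555% of all genes then tested passed. The called values that changed sign did so only in the thinned libraries: Pola1 in Th17 KO against WT (-0.09), Pole in Th17 KO against Th1 KO (0.03) and in Th17 WT against Th1 WT (0.13), and Gins2 in Th17 WT against Th1 WT (0.10). Fewer reads enter that analysis by construction. For Th17 KO against WT, DESeq2 called 2 members, limma-voom 1 and the compared groups alone 1. Of all genes tested, 3.97%, 3.52% and 3.23% passed in these 3 analyses. For Th1 KO against WT the compared groups alone called 2, where 7.89% of all genes tested passed. For the average, DESeq2 called 3, where 6.94% of all genes tested passed. The interaction called 1 member with a term for the shallow libraries, where 0.829% of all genes tested passed. The cause was not tested.

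Leaving out each library in turn gave 35 to 38 members for Th17 KO against Th1 KO and 35 to 37 for Th17 WT against Th1 WT. Of all genes tested, 44.8 to 53.9% and 33.8 to 47.4% then passed. It gave 1 to 4 members for Th17 KO against WT and 1 to 1 for Th1 KO against WT. There 3.31 to 5.73% and 2.09 to 5.47% of all genes tested passed. The average gave 1 to 5 and the interaction 0 to 0, where 7.53 to 9.77% and 0.306 to 0.872% passed. The median log2 fold change over the members stayed between -0.51 and -0.43 in KO cells and between -0.56 and -0.48 in WT cells for Th17 against Th1 over all analyses run. No paired analysis was possible because the labels give no replicate numbers that pair libraries. The 3 shallow libraries are all Th17, so depth limits every comparison that uses Th17 libraries.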
